A study of Mus musculus with 8 samples.

Results

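Cd74, the class II transactivator gene Ciita and 8 genes for chains of major histocompatibility complex (MHC) class II proteins were followed in mouse pro-B cells with and without retroviral Klf2. The genes were chosen by name, as the rows Cd74, Ciita, H2-Aa, H2-Ab1, H2-Eb1, H2-DMa, H2-DMb1, H2-DMb2, H2-Oa and H2-Ob. All 10 were found among the 38918 gene rows of the deposited table. The cells were of the BMiFLT3 (15-3) line, described in the labels as proB cells of a murine BCP-ALL, a B-cell precursor leukaemia. They had been infected with a retrovirus that overexpressed either blue fluorescent protein (BFP), the control, or Klf2, a zinc-finger transcription factor. The descriptions of the Klf2 samples also end in BFP, and the labels do not say whether those cells carry it too. Poly(A) RNA was sequenced as 8 samples, which are 4 lanes of each construct and were counted as 1 library per group. All values are therefore from 1 line, with no second infection or culture in either group.

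MHC class II proteins are pairs of an alpha and a beta chain that show peptides from endosomes to CD4 T cells. Cd74 encodes the invariant chain, which fills the peptide groove of new class II pairs and carries them to endosomes. It is also a cell-surface receptor for the cytokine MIF. The H2-DM protein loads peptides by removing the last piece of the invariant chain, and H2-DO, found mainly in B cells, restrains H2-DM. In B-lineage cells these genes are usually turned on together as cells mature, through RFX, CREB and NF-Y bound at their promoters and the co-activator CIITA.

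The BFP library held 30133978 exon reads and the Klf2 library 30835450. With 1 library in each group no test of the conditions could be made and no p-value is given. Levels are in CPM, counts scaled to library size with TMM. A ratio divides the Klf2 level by the BFP level, and each has an exact 95% interval that covers counting error only. A gene was called measured at 1 CPM or more in either library. It was called lower or higher when the ratio was at least 2-fold from 1 and its interval excluded 1. Klf2 itself had 113 CPM in its library beside 10.1 in BFP, a ratio of 11.1 (9.93 to 12.6). Its read classes differed, with 694 exon-junction reads against 23 in BFP, a ratio of 30.8 (20.4 to 48.9). Reads within Klf2 but outside its exons numbered 17 against 35, a ratio of 0.514 (0.270 to 0.943). Why the classes differ was not tested. The B-lineage gene Cd79a (903 against 962 CPM in the BFP library) and the surrogate light chain genes Vpreb1 and Igll1 were abundant in both libraries. The recombination genes Rag1 and Rag2 had 1 and 4 exon reads in the Klf2 library and 1 and 7 in the BFP library.

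Cd74 was the one gene of the 10 past the 2-fold rule. In the BFP library it had 595, 545, 565 and 592 exon reads in lanes 1 to 4. In the Klf2 library it had 88, 68, 89 and 82. Every Klf2 lane was below every BFP lane, and lanes of a library share its RNA. The summed counts of 2297 and 327 reads correspond to levels of 73.9 (BFP) and 10.9 CPM (Klf2), so the ratio for Cd74 was 0.148 (0.132 to 0.166), which is 6.75-fold lower. Among the 10850 measured genes, 35 had a lower ratio than Cd74. In bulk RNA, fewer cells with Cd74 RNA and less of it per cell cannot be told apart. In the authors' deposited table the signed fold of mean RPKM for Cd74 is -7.18.

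**Figure D1:**
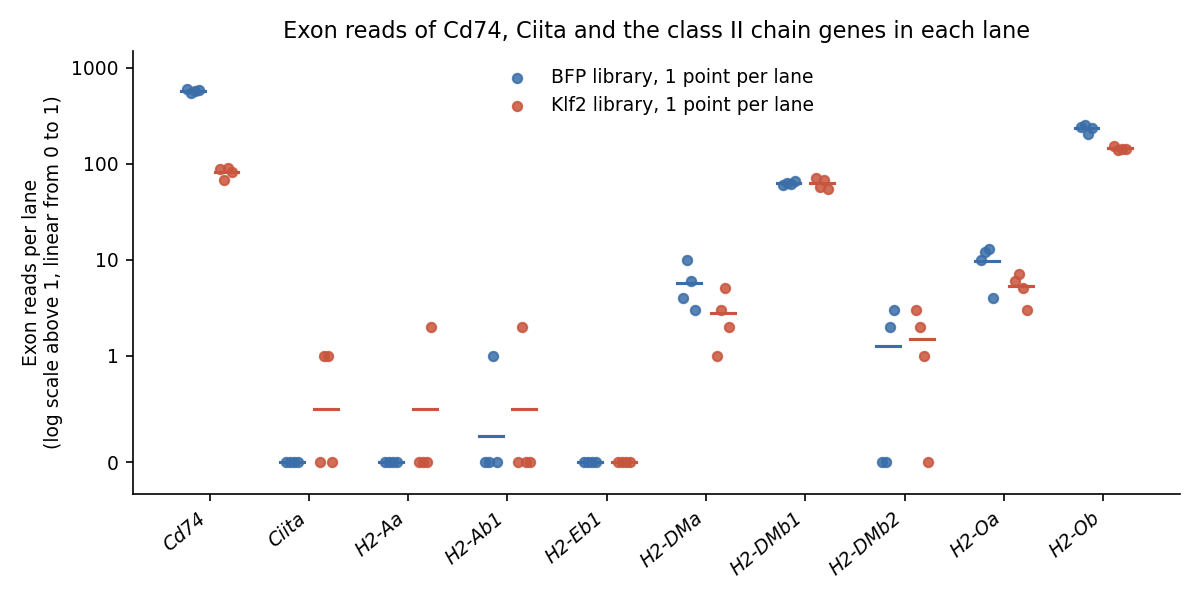
Exon reads per lane (vertical axis, log scale above 1) for each of the 10 genes, with 1 point per lane and a bar at the mean of 4 lanes, BFP in blue and Klf2 in red. Cd74 drops from 545 to 595 reads in the BFP lanes to 68 to 89 in the Klf2 lanes, H2-DMb1 overlaps fully, and the classical chain genes sit at 0 to 2 reads.

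The difference in Cd74 was similar in each class of read. The table places Cd74 at 60803848 to 60812646 of chromosome 18 (mm10) and gives it 12 exons that add up to 1410 bases. On uniquely placed exon reads the Cd74 ratio was 0.148, and 2 of its 327 reads in the Klf2 library were not uniquely placed. Reads across its exon junctions numbered 94 against 728, a ratio of 0.132 (0.105 to 0.164). Reads within the gene but outside its exons numbered 12 against 112, a ratio of 0.113 (0.0569 to 0.206). These intervals overlap that of the exon reads, so the ratios of spliced, exonic and non-exonic Cd74 reads could not be told apart at this depth. The share of Cd74 gene reads outside exons was 4.65% in BFP and 3.54% in Klf2, where all genes together had 15.2% and 15.1%. Median coverage over Cd74, a deposited value per lane, was 17 to 20 in the BFP lanes and 2 to 3 in the Klf2 lanes.

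Ciita, the co-activator on which class II transcription depends, was near 0 in both libraries. It had 0 exon reads in BFP and 2 in Klf2, 1 each in lanes 2 and 3. With 3 reads as the limit that 0 reads allow, Ciita could be as high as 0.0965 CPM unseen in BFP, where the same limit in Klf2 is 0.10 CPM, and no fold is given. Reads outside its exons numbered 6 in BFP and 3 in Klf2. The gene spans chromosome 16, 10488178 to 10527564, and in GENCODE M21 Dexi, on the other strand, overlaps Ciita. Cd74 RNA was thus measured in BFP beside 0 exon reads of Ciita.

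The classical chain genes, whose proteins present peptide at the surface, were also near 0. H2-Aa, the A alpha chain gene (chromosome 17, 34282744 to 34287827), had 0 reads in every BFP lane, and its 2 Klf2 reads were both in lane 4. H2-Ab1, its beta partner (34263209 to 34269418), had 1 exon read in BFP and 2 in Klf2. H2-Eb1, the E beta chain gene (34305883 to 34316199), had 0 exon reads in all 8 lanes. It had 16 gene reads outside exons in BFP and 23 in Klf2, a ratio of 1.52 (0.770 to 3.08). An antisense gene, Gm20513, overlaps H2-Eb1 in GENCODE M21, and whether strand was used in counting is not given in the sources used here. The deposited table gives Gm20513 a row of its own, which ends at 34305720, before H2-Eb1 starts. That row had 0 exon reads in both libraries. Both other class II chain rows were low as well, with 0 reads of H2-Ea-ps in either library and 8 exon reads of H2-Eb2 in Klf2 against 0 in BFP. The H2-Eb2 reads were spread over the Klf2 lanes as 1, 2, 1 and 4.

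Of the non-classical chain genes, H2-Ob and H2-DMb1 were well above the floor. H2-Ob, the beta chain gene of H2-DO (34238903 to 34245907), had 243, 254, 204 and 233 exon reads in the BFP lanes and 152, 138, 142 and 143 in the Klf2 lanes. All Klf2 lanes were below all BFP lanes, but lanes of a library share its RNA and are not replicates. Its level was 30.0 CPM in BFP and 19.2 in Klf2, and the ratio was 0.641 (0.576 to 0.712), which is 1.56-fold lower and does not reach the 2-fold rule. All of its exon reads were uniquely placed, and reads outside exons gave a ratio of 0.583 (0.440 to 0.768). Junction reads made up 7.17% of H2-Ob exon reads in BFP and 6.43% in Klf2, against 31.7% and 28.7% for Cd74 and 21.9% and 22.4% over all genes.

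H2-DMb1, one of 2 genes for the H2-DM beta chain (34153072 to 34160223), did not differ beyond counting error on exon reads. It had 60, 63, 62 and 66 reads in the BFP lanes and 71, 57, 67 and 55 in the Klf2 lanes, and the lanes overlap. Its level was 8.07 CPM in BFP and 8.37 in Klf2, and the ratio was 1.04 (0.866 to 1.24). A 2-fold difference in either direction thus lies outside the counting interval. Of its reads, 73.3% were uniquely placed, and on those the ratio was 1.0 (0.814 to 1.24). Its junction reads numbered 68 in BFP and 48 in Klf2, a ratio of 0.721 (0.487 to 1.06).

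The partner chains were far lower in both libraries. H2-DMa, the H2-DM alpha chain gene (34135182 to 34139101), had 4, 10, 6 and 3 reads in the BFP lanes and 1, 3, 5 and 2 in the Klf2 lanes. That is 0.740 CPM against 0.368 CPM in Klf2, a ratio of 0.498 (0.219 to 1.06) under the 1 CPM floor. H2-DMb2, the other H2-DM beta chain gene (34143307 to 34151553), had 5 exon reads in BFP and 6 in Klf2. H2-Oa, the alpha chain gene of H2-DO (34092340 to 34095234), had 10, 12, 13 and 4 reads in the BFP lanes and 6, 7, 5 and 3 in the Klf2 lanes. The lanes of H2-Oa overlap, and the ratio was 0.560 (0.313 to 0.976). On its uniquely placed reads, 7 in BFP and 9 in Klf2, the ratio was 1.34 (0.445 to 4.24), so the direction for H2-Oa depends on reads that were not uniquely placed. An antisense gene, BC051537, overlaps it in GENCODE M21. Both libraries thus held many more reads of 1 chain of each non-classical pair (H2-Ob, H2-DMb1) than of the other (H2-Oa, H2-DMa).

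**Figure D2:**
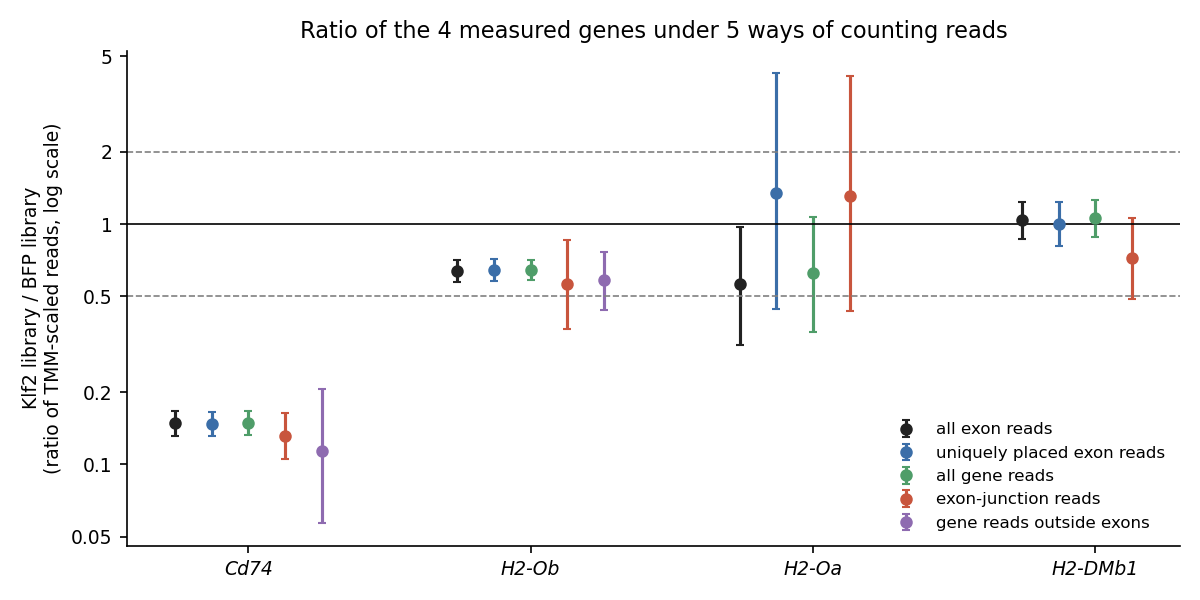
Ratio of the Klf2 to the BFP library (vertical log axis) for the 4 measured genes, by 5 classes of read, with exact 95% intervals of counting error. Gene reads outside exons are drawn for Cd74 and H2-Ob only, since H2-Oa and H2-DMb1 had at most 3 in a library. Cd74 lies between 0.113 and 0.149, H2-Ob between 0.56 and 0.64, H2-DMb1 between 0.721 (junction reads) and 1.06 (all gene reads), and H2-Oa on either side of 1.

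Counted over the 10 genes, 4 were measured, of which 1 was called lower and none higher. Over all 10850 measured genes, 5.67% were called lower and 2.45% higher. At any fold, the intervals of Cd74, H2-Ob and H2-Oa lay below 1, as did those of 37.3% of all measured genes, and 37.1% lay above. H2-Oa passed the floor only through the BFP library, where it is high, so its place below 1 is no support for a lower level of these genes. Its interval also reached 1.07 on gene reads, and 1.04, 1.06 and 1.24 when lane 1, 2 or 3 was left out. As a description of the 4, the median difference in log2(CPM + 1) was -0.51, and that of all measured genes was -0.01. The -0.51 lies between H2-Ob (-0.62) and H2-Oa (-0.40). It thus rests in part on H2-Oa and is no support for a shift of the group.

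**Figure D3:**
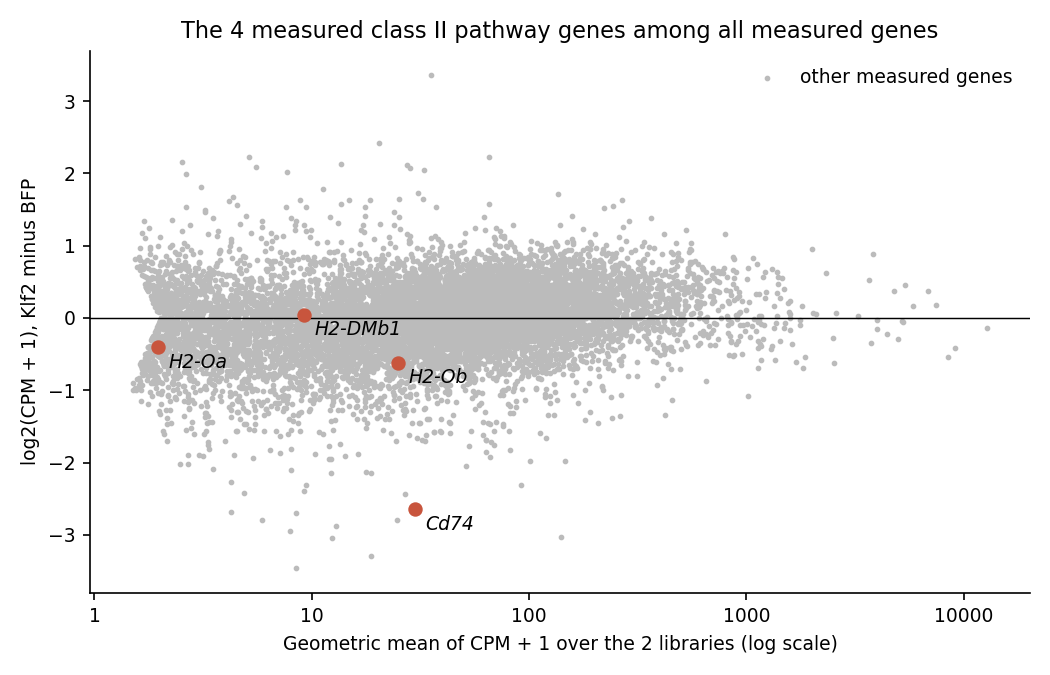
Difference in log2(CPM + 1), Klf2 minus BFP, against the geometric mean of CPM + 1 (log scale) for the 10850 measured genes, in grey, with the 4 measured class II pathway genes in red. Cd74 lies at -2.65, apart from the bulk of genes of its level, while H2-Ob, H2-Oa and H2-DMb1 lie within it.

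Levels per length, in RPKM as the mean of the 4 lanes, set Cd74 well above the other genes in BFP. In Klf2, Cd74 was close to H2-Ob and H2-DMb1 and still well above the rest. In BFP the order was Cd74 at 45.8, H2-Ob at 8.33, H2-DMb1 at 4.78, H2-Oa at 0.836 and H2-DMa at 0.395 RPKM. In Klf2 it was Cd74 at 6.38, H2-Ob at 5.02, H2-DMb1 at 4.66, H2-Oa at 0.440 and H2-DMa at 0.185 RPKM. Cd74 was thus 5.50 times H2-Ob in BFP and 1.27 times H2-Ob in Klf2. The lanes of H2-Ob (4.83 to 5.30 RPKM) and H2-DMb1 (4.08 to 5.28 RPKM) overlapped in Klf2, so their order there is not beyond lane spread. The lanes of Cd74 in Klf2 (5.32 to 6.97 RPKM) lay just above those of H2-Ob.

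Promoter letters are shown to set the measured H2-Ob and H2-DMb1 beside H2-Aa and H2-Eb1, which were near 0, at the class II elements. The Y box is the element searched for that all 4 hold. Each run is the 150 bases before the RefSeq start site (GRCm38.p6, the mm10 assembly), 5′ to 3′ on the gene's strand. Capitals mark GCAAC, letters of the X1 box bound by RFX, TGATGC or TGACG, letters of the X2 box bound by CREB, and ATTGG or its reverse complement CCAAT, the Y box bound by NF-Y. Every match of these letters is marked, so a stretch in capitals need not be the element itself. In H2-Eb1, TGATGC begins 83 and 67 bases before the start site, and the Y box letters 59 and 35 bases before it. In H2-Aa, TGACG matches on both strands and the matches overlap, so 8 letters are in capitals. H2-Ob and H2-DMb1 come first.
H2-Ob, chr17:34238755-34238904, plus strand: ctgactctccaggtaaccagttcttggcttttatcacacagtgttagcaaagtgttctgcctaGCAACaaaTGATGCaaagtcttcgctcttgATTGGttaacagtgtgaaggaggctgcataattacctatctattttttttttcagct
H2-DMb1, chr17:34153041-34153190, plus strand: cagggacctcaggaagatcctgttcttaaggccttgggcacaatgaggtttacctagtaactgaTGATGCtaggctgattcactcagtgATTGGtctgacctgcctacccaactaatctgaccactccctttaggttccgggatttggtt
H2-Aa, chr17:34287824-34287973, minus strand: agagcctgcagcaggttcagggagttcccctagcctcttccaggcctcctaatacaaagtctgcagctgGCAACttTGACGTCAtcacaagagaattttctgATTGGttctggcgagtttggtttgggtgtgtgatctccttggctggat
H2-Eb1, chr17:34305717-34305866, plus strand: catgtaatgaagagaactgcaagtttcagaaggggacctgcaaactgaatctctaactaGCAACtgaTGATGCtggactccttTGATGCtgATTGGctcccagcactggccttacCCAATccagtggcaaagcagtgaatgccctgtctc
In H2-Ob, H2-Aa and H2-Eb1 the letters GCAAC stand 25, 28 and 27 bases before ATTGG.

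Sequence windows of 300 bases, 250 before to 50 after the start, were searched on both strands for 6 genes. These were H2-Oa, H2-DMb2, H2-DMb1, H2-Ob, H2-Aa and H2-Eb1. RefSeq entries matched 7 of the 10 genes, and the windows of H2-DMa were left out because they lie 9664 and 12350 bases from the start of that gene in the table. Of the windows kept, the start sites of H2-DMb2 and H2-DMb1 lie 1942 and 119 bases inside those genes as deposited. Most of the run printed above for H2-DMb1 is thus within its deposited span. Cd74, Ciita and H2-Ab1 had no entry. CCAAT was found in 6 of the 6 windows and in 37.4% of all 32851 windows. CAACA, the X1 core letters chosen from knowledge of class II promoters, was in 2 of the 6 (H2-Oa and H2-Ob) and in 39.4% of all. GCAAC alone was in 4 of the 6 and in 35.2% of all. GCAAC followed by ATTGG after 20 to 35 bases was found in 4 of the 6 (H2-Oa, H2-Ob, H2-Aa and H2-Eb1) and in 0.795% of all windows. TGATGC was in 4 of the 6 (H2-DMb2, H2-DMb1, H2-Ob and H2-Eb1) and in 10.9% of all. TGACG was in H2-Aa and in 20.8% of all. CACCC, the core letters that KLF zinc fingers bind, was in H2-Oa, H2-DMb2 and H2-Aa and in 57.5% of all windows. The letters GCAAC, the letters TGATGC and the spaced pair were all chosen after these promoters had been read. The pair thus occurs in the windows of H2-Ob, with 934 exon reads in BFP, and of H2-Eb1, with 0.

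Within the class II region no other measured gene was past the 2-fold rule. With 5 such genes, that is near the shares over all measured genes, 5.67% lower and 2.45% higher. The class II region of chromosome 17, from the start of H2-Oa at 34092340 to the end of H2-Eb1 at 34316199, spans 224 kb and holds 10 other rows, of which 5 were measured. The immunoproteasome genes Psmb8 and Psmb9 were at 149 against 87.3 CPM in BFP and 39.3 against 26.9 CPM, ratios of 1.70 (1.62 to 1.79) and 1.46 (1.33 to 1.60). Of Psmb8 reads, 38.7% were uniquely placed. The peptide transporter genes had ratios of 0.821 (0.777 to 0.867) for Tap1 and 0.983 (0.908 to 1.06) for Tap2, and the chromatin reader gene Brd2 had 0.860 (0.843 to 0.877). H2-Ob thus had a lower ratio than each of these 5 neighbours, whose intervals lie above its own.

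Cd74 had a lower ratio than the genes beside it. Of the 5 measured genes on each side, none was called. That is near the shares over all measured genes, 5.67% lower and 2.45% higher. Tcof1, a nucleolar gene that starts 1109 bases past the end of Cd74, had 375 CPM beside 334 in BFP (ratio 1.12, 1.09 to 1.16). Rps14, a ribosomal protein gene 25302 bases on the other side, had a ratio of 0.745 (0.725 to 0.764), with 68.3% of its reads uniquely placed.

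**Figure D4:**
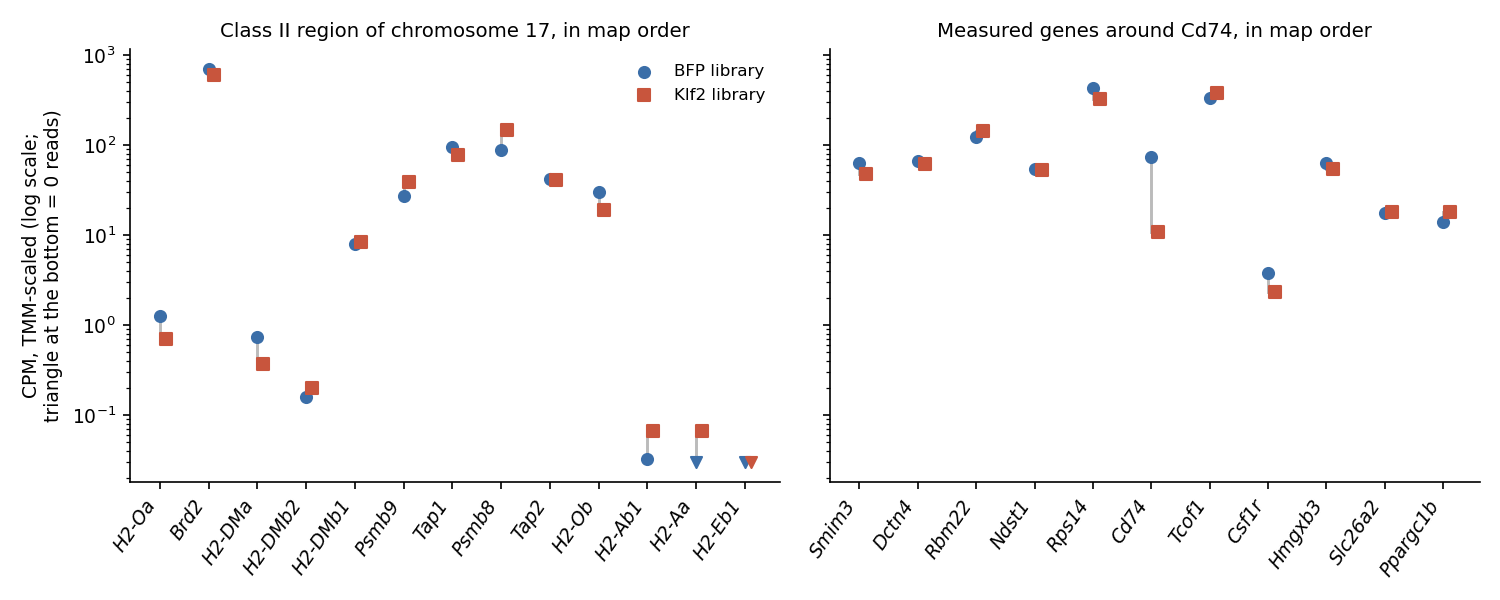
CPM (log scale) of genes in map order, BFP as blue circles and Klf2 as red squares, for the class II region (left; measured genes and the class II chain genes) and the 5 measured genes on each side of Cd74 (right). Triangles mark 0 reads. The pair of points is far apart for Cd74, at 73.9 and 10.9 CPM, and close for its neighbours.

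The factors that bind class II promoters were present in both libraries. All 7 were measured and none was called, with 4 intervals above 1 and 2 below. Of all measured genes, 2.45% were called higher and 5.67% lower, and 37.1% and 37.3% had intervals above and below 1. Rfxank and Rfx5, subunits of the RFX complex, were at 19.1 against 30.7 CPM in BFP (ratio 0.622, 0.559 to 0.690) and 51.4 against 78.1 CPM (ratio 0.659, 0.618 to 0.703). Only 39.1% and 36.7% of their reads were uniquely placed, and on those the ratios were 0.589 and 0.630. The third subunit, Rfxap, had a ratio of 1.08 (0.964 to 1.20). The NF-Y subunit genes Nfya, Nfyb and Nfyc had ratios of 1.17, 1.36 and 1.12, and Creb1 had 1.08. The list median was 0.11 in log2(CPM + 1), beside -0.01 over all measured genes.

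Of the genes known to act on Ciita transcription, Spib was higher and most others were below 1 without reaching 2-fold. Of 15 listed genes, 14 matched a row and were measured. Of these, 1 was called higher and 1 lower, beside 2.45% and 5.67% of all measured genes. Spib, an ETS factor of B cells, had 62.2 CPM beside 20.8 in BFP (ratio 2.99, 2.73 to 3.28). Prdm1, which encodes BLIMP1, a repressor of Ciita in plasma cells, had 3 reads against 33, which gives 0.0946 (0.0186 to 0.302). It passed the floor at 1.06 CPM through the BFP library alone. Irf4, an interferon regulatory factor of B cells, was at 154 against 307 CPM, and its ratio of 0.501 (0.483 to 0.519) falls just short of the 2-fold limit. Ifngr2, a chain of the interferon-gamma receptor through which Ciita is induced in many cells, was at 36.4 against 64.4 CPM. Pax5, the B-lineage factor, and Spi1, the ETS factor PU.1, had ratios of 0.873 and 0.995, named after their values were seen. The interval lay below 1 for 11 of the 14, where 37.3% of all measured genes had one below 1, and the list median was -0.24.

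No gene of endosomal processing was past the rule, beside 5.67% lower and 2.45% higher over all measured genes. Of 17 genes, 13 were measured, 9 had an interval below 1 and 1 had one above, beside 37.3% and 37.1% of all measured genes. Ctss, the cathepsin that cuts the invariant chain in B cells and dendritic cells, had 28.9 CPM beside 54.9 in BFP (ratio 0.526, 0.484 to 0.572). Ctsb, a lysosomal cysteine protease, and Lgmn, the asparagine-specific protease legumain, had ratios of 0.572 (0.552 to 0.593) and 0.573 (0.556 to 0.591). Hspa8, a chaperone gene, was the gene with an interval above 1, at a ratio of 1.85, with 22.1% of reads uniquely placed. The list median was -0.32, while the summed level of the list was 4613 CPM in BFP and 6492 CPM in Klf2, most of it Hspa8. The ratio of Cd74 lies below that of each of the 13 measured genes, and its interval does not reach theirs.

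Partners of Cd74 in MIF signalling differed in direction. Mif was at 631 against 817 CPM in BFP (ratio 0.772, 0.758 to 0.787) and its relative Ddt at 61.4 against 55.7 CPM (ratio 1.10). Only 23.1% of Mif and 36.4% of Ddt reads were uniquely placed. Cd44, the signalling partner of the invariant chain, had 114 CPM beside 75.1 (ratio 1.52, 1.44 to 1.60). The chemokine receptor gene Cxcr4 had 130 CPM beside 211 (ratio 0.617, 0.593 to 0.642). The receptor genes Cxcr2 and Ackr3 had 0 reads in both libraries. None of the 4 measured genes was called, beside 5.67% lower and 2.45% higher over all measured genes.

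Genes of T-cell costimulation were low. Of 9 genes 3 were measured, and Cd86, a ligand of CD28, was called lower with 10 reads against 32 in BFP, a ratio of 0.325 (0.143 to 0.678). It passed the floor at 1.03 CPM through the BFP library alone. The PD-1 ligand gene Cd274 had 74 reads against 145, a ratio of 0.531 (0.396 to 0.707). Tnfsf9 had a ratio of 1.30 (0.841 to 2.02). Of all measured genes, 5.67% were called lower. The list median of -0.60 is the value of Cd86 itself, and it was -0.25 without lane 2, -0.18 without lane 3, -0.15 with deposited RPKM and -0.12 with no floor.

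**Figure D5:**
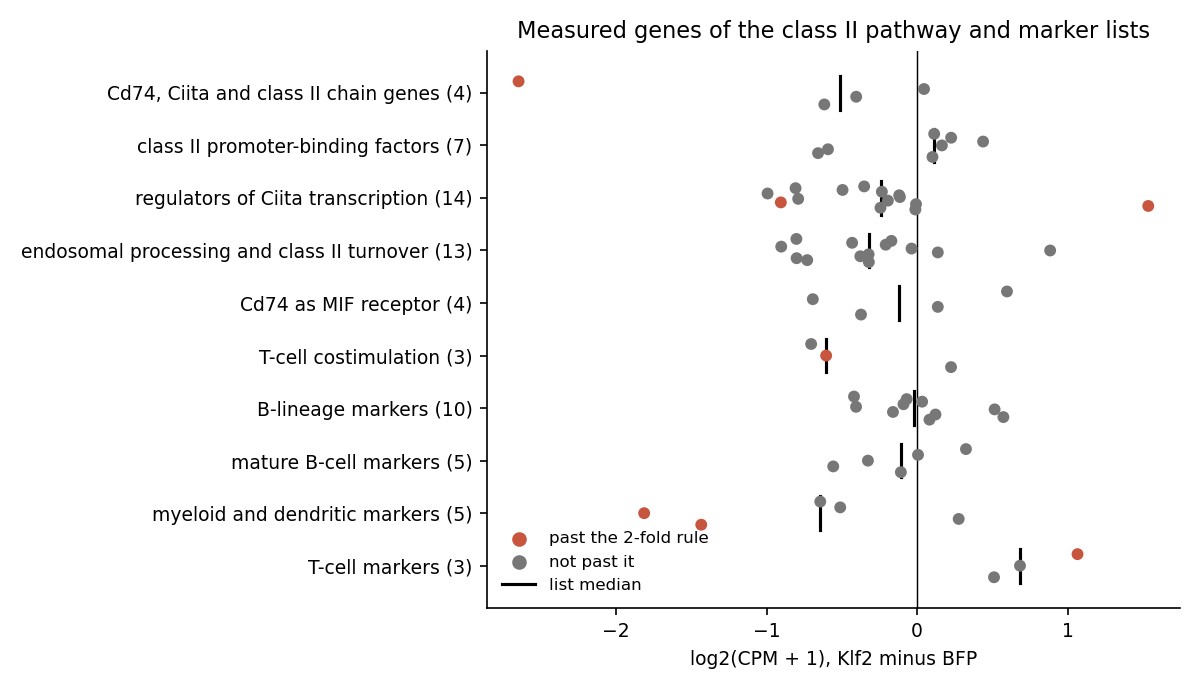
Difference in log2(CPM + 1), Klf2 minus BFP, of each measured gene (1 point each) by list, with the number measured in parentheses, a black bar at the list median and red for genes past the 2-fold rule. Cd74, at -2.65, is the furthest point to the left of all lists.

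Most myeloid markers were below the floor in both libraries, and Fcgr1 and Tyrobp were called lower, as Cd74 was. For this and the other marker lists, the shares over all measured genes were 5.67% lower and 2.45% higher. Of 22 myeloid and dendritic markers 5 were measured, of which Fcgr1, a high-affinity IgG receptor gene, was at 0.803 against 5.34 CPM in BFP (ratio 0.150, 0.0937 to 0.232) and the adaptor gene Tyrobp at 0.703 against 3.60 CPM (ratio 0.195, 0.116 to 0.313). Both passed the floor through the BFP library alone. Cd14 and Csf1r had ratios of 0.543 and 0.623. Summed, the 22 markers had 81.3 CPM (BFP) and 84.8 CPM (Klf2), most of it Ly86, which B cells also express. The sum of the other 21 was 18.1 CPM for BFP and 8.13 for Klf2, most of it from Fcgr1, Tyrobp, Cd14 and Csf1r. The rest were below the floor and differed in direction, with 10 reads in BFP and 5 in Klf2 for Itgam and 5 and 11 for Xcr1. The sum is therefore no measure of the marker set as a whole. S100a8, S100a9, Cd209a and Siglech had 0 reads in both libraries, Itgax had 0 in BFP and 5 in Klf2, and Lyz2 had 11 and 20. Whether myeloid cells had a part in the Cd74 difference was not tested. Of 8 markers of mature B cells, 5 were measured and none was called, and Ms4a1, which encodes CD20, had 0 reads in both. The tetraspanin gene Cd37, named after its values were seen, was at 312 CPM in BFP and 313 CPM in Klf2. By size of log2 difference the first 3 of these were the lymphotoxin gene Ltb (ratio 0.585), Cd55 (0.786) and Cd22 (1.30). None of the 10 measured B-lineage markers was called, and their median was -0.02. Vpreb1 and Igll1 had ratios of 1.49 and 1.43, and Cd79b and the adaptor gene Blnk had 0.753 and 0.746. Of 10 T-cell markers, Lat was called higher at 8.50 against 3.54 CPM, Trac and Zap70 had ratios of 1.76 and 1.55, while Cd3e, Cd4 and Cd8a had 0 reads.

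Among genes that reached 10 CPM, the ratios closest to that of Cd74 were those of Ccl6, Pvrl1, Faim3, Lilrb4 and Ccl3. Likeness was the absolute difference of log2 ratios, which rests on 2 libraries. It was 0.01 for the chemokine gene Ccl6 (3.01 against 20.1 CPM in BFP, with 33.4% of reads uniquely placed) and 0.12 for Pvrl1, a nectin gene (3.21 against 19.9 CPM). Faim3, an IgM Fc receptor gene, was 0.18 from Cd74, Lilrb4, an inhibitory receptor gene, 0.21, and Ccl3, a chemokine gene, 0.29.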

How the data were processed

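RNA of BMiFLT3 (15-3) cells was isolated with poly(A) selection and read on a HiSeq system. Library preparation is given in the labels' protocols with either of 2 kits, so kit and construct cannot be told apart. The submitters' processing notes list CASAVA 1.8.2 and mm10. Not given in the sources used here are the aligner, the counting program, the annotation and the use of strand. The authors deposited counts per gene and lane (all exon, uniquely placed exon, gene and junction reads), median coverage per lane, RPKM, and a signed fold score of mean RPKM. The RPKM were checked by recomputing them (largest difference 0.0258).

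Chi-square of the lanes per degree of freedom was 1.29 in BFP and 1.27 in Klf2 for exon reads and 1.03 in both for uniquely placed reads, under the limit of 1.5, so lanes were summed to n = 1 per group. CPM used TMM factors (edgeR 4.0.16, R 4.3.3), which shift log2 ratios by 0.09 from total-count scaling. Intervals are exact (Clopper-Pearson, scipy 1.17.1), conditional on the summed reads. Reads carry no molecular identifiers, so intervals and limits cover counting error only. The rule was run on simulated counts with counting error only, which cannot show how it fares with spread between cultures. Members, lists, motifs and rules were chosen with earlier results of these data known. All members, the promoter-binding and MIF lists, up to 4 genes of each other list (largest log2 difference, called genes first), the nearest measured neighbours and the 5 genes closest to Cd74 are named. A gene that this rule would name is not reported here. Ebf1 and Cr2 matched no row. Alternatives were other scalings, read classes, floors, fold limits, pseudocounts and leaving out each lane.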

Additional observations from a re-analysis of the deposited data

How the results depend on the processing

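The ratio of Cd74 ran from 0.139 to 0.153 over 9 alternatives of scaling, read class, deposited RPKM and lanes left out, and it was called lower in each. The read classes were uniquely placed exon reads and gene reads, and the 9 largely count the same reads. Junction reads and reads outside exons, at 0.132 and 0.113 for Cd74, were not among the 9. H2-Oa turned to 1.34 on uniquely placed reads. The ratios of Klf2, H2-Ob and H2-DMb1 stayed inside their intervals under the same 9. On junction reads each left the interval of its exon reads, at 30.8 for Klf2, 0.564 for H2-Ob and 0.721 for H2-DMb1. With a 1.5-fold limit 3 of the 4 measured genes were lower (Cd74, H2-Ob and H2-Oa), beside 1505 of all 10850 measured genes. Of these 3, H2-Oa passed the floor through the BFP library alone. Over all genes, the lower and higher counts (615 and 266) were 1505 and 1112 with a 1.5-fold limit, 210 and 77 with a 3-fold limit, and 277 and 121 with a floor of 10 CPM. The higher count was 128 with deposited RPKM and 432 with no floor. Over the pathway and marker lists, 64 of 107 genes were measured. Of these, 4 were lower and 2 higher, beside 5.67% and 2.45% of all measured genes. The 4 lower genes (Prdm1, Cd86, Fcgr1 and Tyrobp) passed the floor through the BFP library alone. The lower count became 7 with total-count scaling (757 over all genes) and 0 with a floor of 10 CPM. The 2 higher genes became 4 with no floor and 1 with a floor of 10 CPM. Of 106 list medians recomputed, 14 moved by over 0.1 on the log2 scale and 2 changed sign, those of the B-lineage list with no floor and of the myeloid list with a floor of 10 CPM. Floors and fold limits change which genes are counted, and for the other moves the cause was not tested. No paired analysis was possible because the shared numbers are sequencing lanes of 1 library per group and no test was made. Depth limits the 6 genes under 1 CPM, for which a 2-fold difference could not be told from none.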
